A study of Mus musculus with 67 samples.

Results

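The BCL2 family sets the threshold at which a cell dies through its mitochondria. Rows for 10 family genes, Bcl2, Bcl2l1, Mcl1, Bak1, Bok, Bcl2l11, Bid, Bad, Bik and Bmf, were taken by symbol from a bulk RNA-seq table of 29579 genes, and all 10 were present. The table holds 67 libraries, 49 from mouse small intestinal organoids in 10 media and 18 from small intestinal crypts in 9 groups. Organoids are epithelial cultures grown in Matrigel from crypts of mice aged 6 to 12 weeks. ENR medium carried EGF at 50 ng/mL, Noggin at 100 ng/mL and R-Spondin 1 at 500 ng/mL (7 libraries). The 8C medium, which yields the study's hyperplastic organoids, carried the BMP receptor inhibitor LDN193189 (0.2 µM), GSK-3 Inhibitor XV (0.1 µM), the p38 and Tie2 inhibitor Pexmetinib (1 µM), VPA (500 µM) and EPZ6438 (2 µM). It also held EGF at 50 ng/mL, bFGF at 20 ng/mL and R-Spondin 1 conditioned medium at 10% (7 libraries). VPA (valproic acid) inhibits histone deacetylases, and EPZ6438 inhibits EZH2, the methyltransferase that writes H3K27me3. Single components were left out in 8C -V (6 libraries), 8C -E (7), 8C -GSK3i, 8C -Pex, 8C -bFGF and 8C -EGF (3 each), and VPA and EPZ6438 were left out together in 8C -VE (7). ENR +VE (3 libraries) is ENR with both compounds, at doses that the labels do not give. Crypts came from unirradiated mice (Normal) and from mice at day 1, 2, 3 or 5 after 1 dose of 12 Gy of radiation (IR). The VE groups were irradiated likewise and then received VPA at 40 mg/kg and EPZ6438 at 0.6 mg/kg by gavage each day, and every crypt group had 2 libraries. The irradiated mice were female C57BL/6 mice aged 8 weeks.

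Anti-apoptotic members (Bcl2, Bcl2l1, which encodes BCL-XL, and Mcl1) bind and restrain their relatives. The effectors Bak1 and Bok, like Bax, can permeabilize the outer mitochondrial membrane. BH3-only members (Bcl2l11, which encodes BIM, and Bid, Bad, Bik and Bmf) carry death signals by occupying the restrainers or engaging the effectors. In the intestine the family is known for governing the loss of crypt cells after radiation. Much of its control lies in protein stability and phosphorylation, which RNA levels do not report.

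The annotation GENCODE M21 (GRCm38, the mm10 assembly) places Bok on chromosome 1 at 93685660 to 93695764, Mcl1 on chromosome 3 at 95658788 to 95663176 and Bmf on chromosome 2 at 118528757 to 118549687, the first and second on the plus strand and Bmf on the minus strand. Promoter windows of 250 bases before to 50 bases after a RefSeq start (GRCm38.p6) were held for 9 of the 10 genes, 15 windows in all; Bik was not among them. The windows of Bok, Mcl1 and Bmf are printed as examples of the 6 members that changed between 8C and ENR organoids, Bok and Bmf upward and Mcl1 downward. Capitals mark the GC box GGGCGG on either strand, which 35.7% of all 32851 windows of this length hold.
Bok, chr1:93685325-93685624, plus strand: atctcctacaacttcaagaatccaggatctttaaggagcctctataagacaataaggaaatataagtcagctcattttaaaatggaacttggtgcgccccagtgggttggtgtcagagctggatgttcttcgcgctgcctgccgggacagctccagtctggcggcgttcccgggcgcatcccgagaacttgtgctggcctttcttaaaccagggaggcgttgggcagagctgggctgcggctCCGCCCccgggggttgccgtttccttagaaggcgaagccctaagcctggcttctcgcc
Mcl1, chr3:95658471-95658770, plus strand: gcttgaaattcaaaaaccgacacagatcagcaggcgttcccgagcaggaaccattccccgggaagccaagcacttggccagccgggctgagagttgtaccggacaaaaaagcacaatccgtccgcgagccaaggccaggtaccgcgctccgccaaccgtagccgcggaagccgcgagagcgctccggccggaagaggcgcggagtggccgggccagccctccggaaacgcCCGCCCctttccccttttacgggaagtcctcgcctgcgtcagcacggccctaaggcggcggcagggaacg
Bmf, chr2:118549637-118549936, minus strand: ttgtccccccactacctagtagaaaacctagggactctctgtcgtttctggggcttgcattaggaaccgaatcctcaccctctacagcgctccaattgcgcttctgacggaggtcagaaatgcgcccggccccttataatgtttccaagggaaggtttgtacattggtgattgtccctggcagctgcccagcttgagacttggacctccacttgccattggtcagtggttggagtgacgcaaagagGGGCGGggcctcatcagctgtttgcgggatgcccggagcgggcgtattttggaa
Bok and Mcl1 had 1 window each, and Bmf had 3, of which the one at the most upstream start is printed. Each of the 3 printed windows held 1 GC box. They held 16 (Bok), 33 (Mcl1) and 13 (Bmf) CG dinucleotides, against a median of 7 over all windows. The other Bmf windows, with lowest coordinates 118544538 and 118547550, held 8 and 6 CG dinucleotides and no GC box. Bid and Bcl2l11, which also rose in 8C, had 3 GC boxes and 22 CG dinucleotides in the Bid window and 3 GC boxes in each of the 2 Bcl2l11 windows, with 27 and 38 CG dinucleotides. The Bcl2 window held 44 with 7 GC boxes. None of the 15 windows held the TATA box TATAAA, the E-box CACGTG or the AP-1 sequence TGANTCA on either strand, which 13.6%, 7.15% and 7.81% of all windows hold.

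Values were deposited as TPM, a level per transcript length that keeps no read depth, so counting error is unknown and the precision rests on the number of libraries. Organoid columns summed to 983801 to 988144 and crypt columns to 819346 to 910935. Mitochondrial genes took 1.52% to 6.64% of TPM in organoids and 10.6% to 48.4% in crypts. Part of that gap was mt-Atp8, a short mitochondrial gene, which was at 52862 to 243105 TPM in crypts (6.03% to 29.7% of TPM) and at no more than 14.8 TPM in organoids. The sets were not compared by level. Epithelial markers (Epcam, Cdh1 and 6 others) summed to at least 7953 TPM in every organoid library and at least 3920 TPM in every crypt library. In organoids T cell, endothelial, leukocyte and muscle markers summed to at most 4.69 TPM, erythroid markers to at most 6.95 TPM, B and plasma cell markers to at most 9.38 TPM and myeloid markers to at most 17.2 TPM. Stromal markers summed to 3.74 to 28.6 TPM in 9 media and to 58.1 to 141 TPM in 8C -EGF, and of their 6 genes only Vim reached the minimum for testing in the comparison of 8C with ENR. In bulk samples, fewer cells of a type and less RNA per cell cannot be told apart. The study's figure legends count mice as replicates, but the labels do not tie single libraries to mice, so p-values measure the spread between these libraries.

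In organoids all 10 members were above 1 TPM in every library, but their levels spanned a wide range. In ENR the order by mean TPM was Mcl1 (175 ± 23.8, SD, n = 7), Bak1 (125 ± 24.1), Bad (55.3 ± 9.02), Bok (40.7 ± 9.01), Bcl2l1 (33.2 ± 2.33), Bid (20.6 ± 2.69), Bcl2l11 (6.02 ± 1.46), Bcl2 (5.22 ± 0.556), Bmf (3.44 ± 0.935) and Bik (2.43 ± 0.980). The ranges of neighbours in that order overlapped, except between Bak1 and Bad, Bcl2l1 and Bid, and Bid and Bcl2l11. In 8C, by mean TPM, Bok came after Mcl1 and Bak1 at 104 ± 22.1 TPM, and Bmf (15.6 ± 5.79) and Bik (12.3 ± 1.84) stood above Bcl2l11 (9.66 ± 1.99) and Bcl2 (5.90 ± 1.00). The ranges of neighbours in the 8C order overlapped, except between Bid and Bmf and between Bcl2l11 and Bcl2. Across the 49 organoid libraries the largest spread belonged to Bik (1.30 to 15.7 TPM) and Bmf (2.24 to 22.6 TPM), whose highest values were 12.1 and 10.1 times their lowest. Bak1, Mcl1, Bcl2, Bad, Bid and Bcl2l1 varied between 1.86 and 2.86 times.

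**Figure D1:**
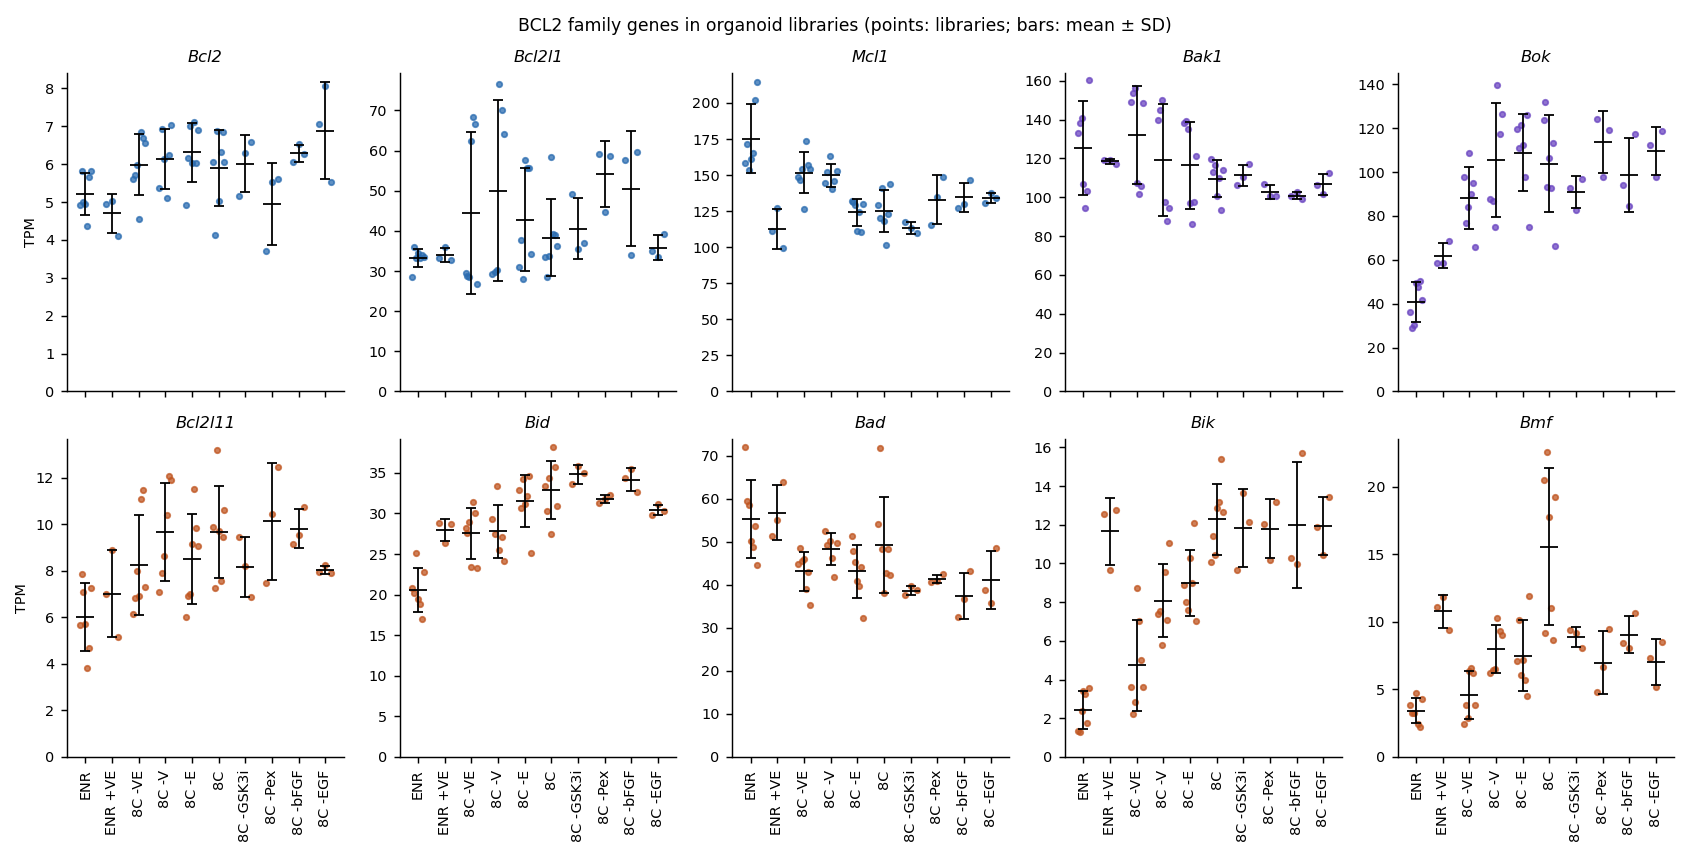
TPM of each member (vertical axis, linear from 0) in every organoid library by medium; points are libraries and bars are the mean ± SD. Bik, Bmf and Bok have their lowest means in ENR, where every Bok value lies below every other medium, and Mcl1 has its highest mean there.

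The comparison of 8C with ENR asks what the full medium does to the family. Bok, Bid, Bik, Bmf and Bcl2l11 rose and Mcl1 fell, 6 of the 10 members tested, against 35.1% of all genes tested in this comparison (limma, Benjamini-Hochberg adjusted p under 0.05 over all genes). Fold changes are differences of mean log2(TPM + 1), a scale that understates the change of low genes such as Bik and Bmf. Bik, a BH3-only protein of the endoplasmic reticulum, ranged from 1.30 to 3.56 TPM in ENR (median 2.39) and from 10.1 to 15.4 TPM in 8C (median 12.7). No 8C library came near the ENR range, and the log2 fold change was 2.00 ± 0.18 (SE; adjusted p = 2.32e-07). Bmf, a BH3-only protein tied to the cytoskeleton, ranged from 2.24 to 4.76 TPM in ENR (median 3.26) and from 8.68 to 22.6 TPM in 8C (median 17.8). Its groups did not overlap either, although the 8C libraries were spread widely, 3 of them between 8.68 and 11.04 TPM and 4 between 17.8 and 22.6 TPM (log2 fold change 1.85 ± 0.23, adjusted p = 6.82e-06).

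Bok, an effector that is turned over at the endoplasmic reticulum, ranged from 28.8 to 50.1 TPM in ENR (median 41.9) and from 66.3 to 132 TPM in 8C (median 106). The groups lay apart, with a log2 fold change of 1.33 ± 0.17 (adjusted p = 8.08e-06). Bid, which caspase-8 cleaves to link death receptors to mitochondria, ranged from 16.9 to 25.1 TPM in ENR (median 20.3) and from 27.5 to 38.2 TPM in 8C (median 33.3). The change was smaller but again without overlap (0.65 ± 0.11 on the log2 scale, adjusted p = 1.36e-04). The BIM gene Bcl2l11 ranged from 3.83 to 7.85 TPM in ENR and from 7.24 to 13.2 TPM in 8C, groups that overlapped (0.61 ± 0.16, adjusted p = 0.00774). Mcl1, a short-lived restrainer that crypt cells depend on, ranged from 153 to 215 TPM in ENR (median 166) and from 101 to 144 TPM in 8C (median 123). Every 8C library lay below every ENR library, and the log2 fold change was -0.48 ± 0.10 (adjusted p = 0.00139).

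The other members gave no call in 8C against ENR. The log2 fold change was 0.14 for Bcl2 (95% interval -0.13 to 0.41), 0.17 for Bcl2l1 (-0.10 to 0.45), -0.17 for Bak1 (-0.42 to 0.08) and -0.17 for Bad (-0.47 to 0.12). Within single libraries, where scaling plays little part, log2(Mcl1 + 1) minus log2(Bcl2l11 + 1) lay between 4.26 and 5.16 in ENR and between 3.32 and 3.88 in 8C, without overlap. Of the 3 such differences computed, the others overlapped, Bcl2l1 minus Bak1 at -2.23 to -1.48 in ENR and -1.96 to -0.78 in 8C, and Bcl2 minus Bcl2l11 at -0.43 to 0.23 and -0.85 to -0.22. In the libraries numbered 1 to 3 alone, Mcl1 (adjusted p = 0.0536) and Bcl2l11 (adjusted p = 0.173) missed the threshold. Paneth cell markers summed to 10920 to 13216 TPM in ENR and to 1168 to 4463 TPM in 8C, and the stem cell markers to 2054 to 3632 and to 525.8 to 1621 TPM. The stem cell list did not move as one, as Olfm4 fell (-6.82, adjusted p = 1.38e-10) while Lgr5 rose from a mean of 40.5 to 65.0 TPM (0.61, adjusted p = 0.0438). All 5 enterocyte markers and 4 of 5 goblet markers fell, as did the tuft marker Trpm5 (-1.11) and the B cell marker Cd79b (-0.95), while the goblet marker Agr2 (0.47) and the stromal marker Vim (1.01) rose. The part of these cell types in the result was not tested.

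**Figure D2:**
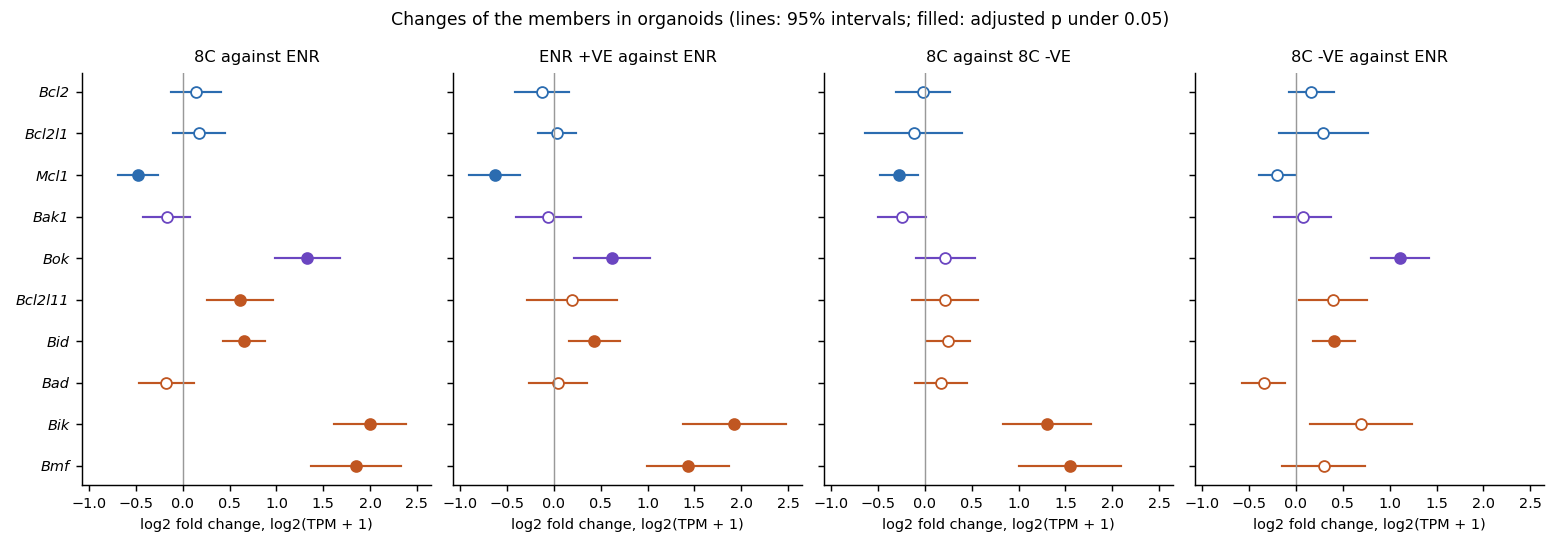
Log2 fold change of each member on log2(TPM + 1) (horizontal axis) in 4 organoid comparisons; lines are 95% intervals, filled points passed an adjusted p of 0.05 and colours give the role (blue anti-apoptotic, purple effector, orange BH3-only). Bik and Bmf lie far to the right in each comparison that adds VPA and EPZ6438, and Bok lies to the right in each comparison against ENR.

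The VPA and EPZ6438 part of the medium was examined on both bases. In the 8C base (8C against 8C -VE), Bik and Bmf rose and Mcl1 fell, 3 of 10 members, against 23.4% of all genes. Without the compounds Bik was at 2.21 to 8.73 TPM and Bmf at 2.42 to 6.57 TPM, below every 8C library. The log2 fold changes were 1.30 ± 0.22 for Bik (adjusted p = 3.01e-04) and 1.55 ± 0.26 for Bmf (adjusted p = 2.31e-04). Mcl1 went from 126 to 174 TPM without the compounds to 101 to 144 TPM with them, groups that overlapped (-0.28 ± 0.10, adjusted p = 0.0482). Its call was lost in 5 of the alternative settings, with adjusted p between 0.0519 and 0.158. Bok gave 0.22 (95% interval -0.10 to 0.53) and Bid 0.25 (0.02 to 0.48, adjusted p = 0.110). With the replicate number as a block, 5 of 10 members were called, and the 23.4% belongs to the fit without it. In the same comparison all 5 Paneth, 4 of 5 enterocyte and 3 of 5 goblet markers fell, as did Olfm4 (-5.93), Trpm5 (-0.83) and Cd79b (-1.17), while Vim (1.43) and the leukocyte marker Coro1a (1.35) rose. None of the 4 enteroendocrine markers was called, and the part of these markers in the result was not tested.

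In the ENR base (ENR +VE against ENR, which shares its ENR libraries with the comparison of 8C), Bik, Bmf, Bok and Bid rose and Mcl1 fell, 5 of 10 members, against 20.7% of all genes. Bik stood at 9.66, 12.5 and 12.8 TPM in the 3 ENR +VE libraries, above every ENR library. The fold change against ENR was 1.93 ± 0.25 on the log2 scale (adjusted p = 2.09e-04). Bmf stood at 9.43, 11.1 and 11.8 TPM (1.43 ± 0.20, adjusted p = 2.99e-04). Mcl1 stood at 99.3, 111 and 127 TPM, below the lowest ENR library (-0.63 ± 0.12, adjusted p = 0.00373). Bok (58.6, 58.8 and 68.5 TPM) and Bid (26.4, 28.7 and 28.9 TPM) also lay above every ENR library. Their changes were 0.62 ± 0.19 (adjusted p = 0.0358) and 0.43 ± 0.12 (adjusted p = 0.0296), and leaving out any ENR +VE library lost both calls, with adjusted p between 0.0710 and 0.147. Quantile normalization lost both as well (adjusted p = 0.132 and 0.0717), and 75th percentile scaling lost that of Bok (adjusted p = 0.145). Libraries numbered 1 to 3 make up ENR +VE, whereas ENR pools these with higher numbers. Bok in ENR was 28.8 to 36.3 TPM in numbers 1 to 3 and 47.8 to 50.1 TPM in 4 to 6. Bid went the other way, with 20.3 to 25.1 and 16.9 to 19.4 TPM. Over numbers 1 to 3 of ENR the means were 31.8 TPM for Bok and 22.1 TPM for Bid. In ENR +VE they were 61.9 and 28.0 TPM. The fold changes above are against all ENR libraries. Among cell type markers, 3 of 4 enteroendocrine markers rose (Chga 0.60, Chgb 0.80 and Neurod1 0.97), and so did the tuft marker Pou2f3 (0.73), the stem cell marker Ascl2 (0.51) and Vim (0.73). Lower were 4 of 5 Paneth markers (Lyz1 -2.33), Olfm4 (-1.18) and Cd79b (-1.41), and the part of these markers was not tested.

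The response to the compounds was then compared between the bases, as the change in 8C minus the change in ENR. No member was called, against 0.643% of all genes by the same test, and Mcl1 had the lowest p (difference 0.36, 95% interval 0.04 to 0.67, unadjusted p = 0.0301, adjusted p = 0.657). For Bik the difference was -0.63 (-1.35 to 0.10) and for Bmf 0.12 (-0.64 to 0.87), intervals that leave room for unequal responses. The 8C base without the compounds (8C -VE against ENR) changed Bok and Bid, 2 of 10 members, against 9.35% of all genes. Bok was at 66.0 to 109 TPM in 8C -VE, above every ENR library (1.11 ± 0.15, adjusted p = 3.02e-04), and Bid was at 23.3 to 31.4 TPM, which overlapped ENR (0.40 ± 0.10, adjusted p = 0.0236). Here same-numbered libraries varied together, and with the replicate number as a block Bad (-0.34, adjusted p = 0.0117), a BH3-only protein held in check by phosphorylation, and Bik (0.69, adjusted p = 0.0173) passed as well. The 9.35% is the share in the fit without the block.

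Each compound was also left out or kept alone. Removal of VPA (8C -V against 8C) lowered Bik to 5.78 to 11.04 TPM and Bmf to 6.25 to 10.3 TPM, 2 of 10 members, against 12.1% of all genes. The log2 fold changes were -0.57 ± 0.15 for Bik (adjusted p = 0.0247) and -0.82 ± 0.23 for Bmf (adjusted p = 0.0309), and both groups overlapped 8C. Under quantile normalization neither was called (adjusted p = 0.165 for Bik and 0.0508 for Bmf), nor in numbers 1 to 3 alone (0.0802 and 0.0659, limma adjusted p), and Bik was lost under 75th percentile scaling (adjusted p = 0.0517). In numbers 4 to 6 alone Bmf was lost (-0.30, adjusted p = 0.320). With the replicate block Bmf missed the threshold (adjusted p = 0.0578) and Mcl1 passed it (0.30, adjusted p = 0.0268). The 12.1% is the share in the fit without the block. Removal of EPZ6438 (8C -E against 8C) lowered Bmf to 4.49 to 11.9 TPM, 1 of 10 members against 6.77% of all genes (-0.93 ± 0.24, adjusted p = 0.0258), and the call was lost in numbers 1 to 3 alone (-1.01, adjusted p = 0.155). Bik there was at 7.05 to 12.1 TPM (-0.42 ± 0.14, adjusted p = 0.0896). Cell type markers moved too. Without VPA all 5 Paneth markers rose (Lyz1 1.90), as did 4 of 5 goblet and 2 of 5 enterocyte markers, the stem cell marker Olfm4 (4.29), the tuft marker Trpm5 (1.54) and the enteroendocrine marker Cck (1.11), while Coro1a fell (-1.17). Without EPZ6438, 2 of 5 Paneth markers rose (Lyz1 1.32) and so did Olfm4 (4.99), while the enteroendocrine markers Chga (-2.96) and Chgb (-1.26) fell, 2 of 4, as did Vim (-2.23) and Coro1a (-1.27). The summed Paneth markers were 1168 to 4463 TPM in 8C, 6784 to 9454 TPM in 8C -V and 3693 to 8331 TPM in 8C -E, and the enteroendocrine sum was 567.2 to 1567 TPM, 826.7 to 1960 TPM and 264.2 to 562.1 TPM. Their part in the Bik and Bmf changes was not tested.

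With EPZ6438 alone (8C -V against 8C -VE), no member was called by limma, against 6.05% of all genes. Bik gave 0.74 (95% interval 0.21 to 1.26, unadjusted p = 0.00926, adjusted p = 0.116) and Bmf 0.72 (0.27 to 1.18, unadjusted p = 0.00439, adjusted p = 0.0645). The numbers of these groups varied together, and with the replicate block both passed, Bik at 0.70 (adjusted p = 0.0164) and Bmf at 0.70 (adjusted p = 6.07e-04). The 6.05% is the share in the fit without the block. With VPA alone (8C -E against 8C -VE), Bik rose (0.88 ± 0.22, adjusted p = 0.0159) and Mcl1 fell (-0.28 ± 0.08, adjusted p = 0.0323), 2 of 10 members, against 10.6% of all genes. With the block these were joined by Bak1 (-0.18, adjusted p = 0.00656), Bok (0.30, adjusted p = 0.00559) and Bid (0.19, adjusted p = 0.0218). The share of 10.6% belongs to the fit without the block, and the share with it is not given here. The call of Bik was lost under quantile normalization (0.70, adjusted p = 0.0913), that of Mcl1 under plain eBayes (adjusted p = 0.0516), and both in numbers 4 to 6 alone (adjusted p = 0.166 and 0.108). Markers moved under each single compound. With EPZ6438 alone Chga (1.46), Chgb (1.01), Neurod1 (0.61) and Vim (0.96) rose, while Lyz1 (-0.75), the goblet marker Fcgbp (-0.52), Olfm4 (-1.64) and Cd79b (-0.80) fell. With VPA alone 3 of 5 Paneth, 3 of 5 goblet and 2 of 5 enterocyte markers fell, and so did Chga (-2.05), Cck (-1.03), Trpm5 (-0.75), Cd79b (-1.49) and Vim (-0.79). Their part in the Bik, Bmf and Mcl1 values was not tested. The VPA by EPZ6438 interaction over the 4 media (limma, without the block) called no member, against 0.653% of all genes, and none had an unadjusted p under 0.05.

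Omission of the other components left the family without a call. By limma 0 of 10 members passed for 8C -GSK3i (0% of all genes), 8C -Pex (0.591%), 8C -bFGF (0.00779%) and 8C -EGF (0.514%), with 3 libraries in each. At an unadjusted limma p under 0.05 the members were Bmf without GSK3i (-0.66, adjusted p = 0.763), without Pexmetinib (-1.01, adjusted p = 0.208) and without EGF (-0.99, adjusted p = 0.202), and Bcl2l1 without Pexmetinib (0.51, adjusted p = 0.308). Of all genes, 6.53% had such a p without GSK3i, 13.03% without Pexmetinib, 5.56% without bFGF and 12.65% without EGF. At that threshold these members are therefore not set apart from all genes. Bcl2l1 stood at 44.6 to 59.1 TPM in 8C -Pex. In 8C it stood at 28.4 to 33.6 TPM in libraries numbered 1 to 3, 39.1 to 58.4 TPM in numbers 4 to 6 and 36.3 TPM in number 7. Bmf lay at 4.80 to 10.6 TPM over all 4 media, and the 8C -EGF libraries (5.18 to 8.52 TPM) did not overlap 8C. Bik, in contrast, lay at 9.67 to 15.7 TPM over these media, with log2 fold changes between -0.05 and -0.03. With all organoid libraries in 1 fit, Bmf passed without Pexmetinib (adjusted p = 0.0307) and without EGF (adjusted p = 0.0311). The tuft marker Trpm5 rose without Pexmetinib (1.94, limma adjusted p = 5.28e-04), where the tuft marker Pou2f3 was not called (0.87). Neither was called without GSK3i, bFGF or EGF. The part of cell types in the Bmf values was not tested.

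Bcl2l1 and Bak1, which gave no call in the organoid comparisons above without the block, split by library number instead. In 8C -VE, Bcl2l1 stood at 28.5 to 29.6 TPM in the libraries numbered 1 to 3, at 62.4 to 68.4 TPM in those numbered 4 to 6 and at 26.8 TPM in the seventh. In 8C -V it stood at 29.2 to 30.4 TPM in numbers 1 to 3 and at 64.0 to 76.6 TPM in numbers 4 to 6. The libraries lay apart in the same direction in 8C -E (27.9 to 37.7 against 55.5 to 57.6 TPM) and in 8C (28.4 to 33.6 against 39.1 to 58.4 TPM). ENR showed no such split, with 28.5 to 35.9 TPM in numbers 1 to 3 and 33.3 to 34.6 TPM in numbers 4 to 6.

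Bak1, the effector that BCL-XL and MCL1 hold in check, went the other way. In 8C -VE it stood at 149 to 156 TPM in numbers 1 to 3 and at 102 to 107 TPM in numbers 4 to 6, and in ENR at 133 to 141 and 94.3 to 107 TPM. It was lower in numbers 4 to 6 without overlap in all 5 media with 6 or 7 libraries. Of the 10 members only Bcl2l1 and Bak1 lay apart in 1 direction in 8C, 8C -V, 8C -E and 8C -VE, against 15.0% of all 12625 genes examined, so the split is not particular to them. The labels do not say what the numbers stand for. Within numbers 4 to 6, Bcl2l1 was higher in 8C -VE than in ENR (0.93, adjusted p = 3.62e-04) and in 8C -V than in 8C (0.64, adjusted p = 0.0139), whereas within numbers 1 to 3 these changes were -0.16 (adjusted p = 0.204) and -0.09 (adjusted p = 0.746).

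**Figure D3:**
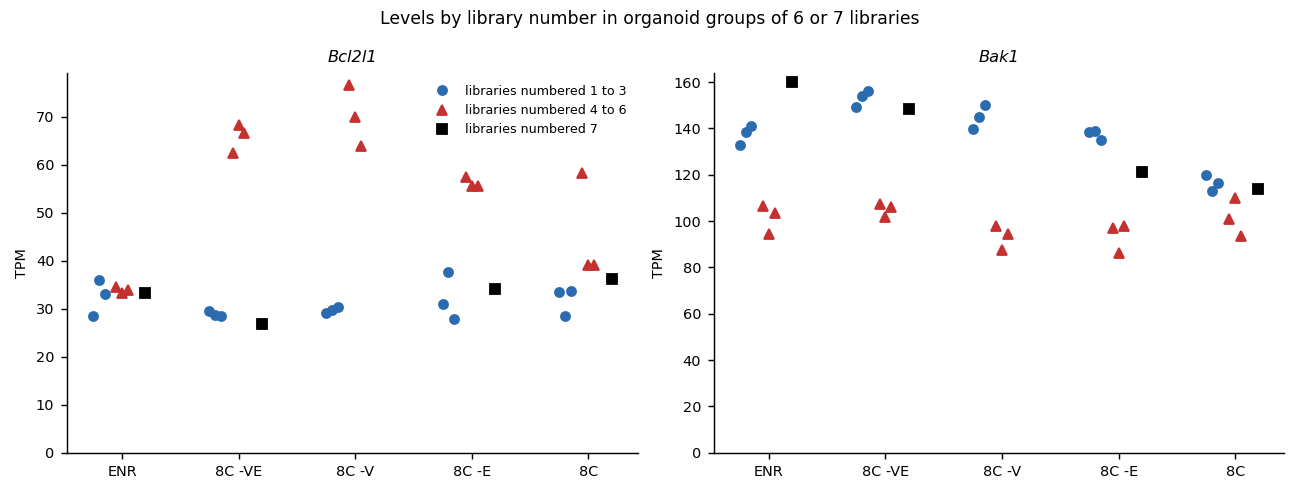
TPM of Bcl2l1 and Bak1 (vertical axes, linear from 0) by library number in the 5 organoid media with 6 or 7 libraries; circles are numbers 1 to 3, triangles 4 to 6 and squares 7. Bcl2l1 is near 30 TPM in numbers 1 to 3 and above 60 TPM in numbers 4 to 6 of 8C -VE and 8C -V but not of ENR, and Bak1 is lower in numbers 4 to 6 of every medium.

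Other apoptosis genes gave context in 8C against ENR, where 25.4% of all genes tested rose and 9.70% fell. Of 15 further family genes, 11 were tested, 4 rose and 1 fell: Bnip3 (1.41), Bcl2l14 (0.53), Bcl2a1d (1.22), whose near-identical copies can share reads, and the effector Bax (0.95) rose, and Bcl2l15 (-2.53) fell. Of 13 apoptosome and caspase genes, 2 rose and 5 fell. Of 9 inhibitor of apoptosis genes none rose and 2 fell, and of 10 death receptor genes 2 rose and 1 fell. Of 11 p53 genes, 6 rose and 1 fell, led by Zmat3 (1.42) and Phlda3 (2.15). The median log2 fold change was 0.39 for the further family genes, -0.25 for the caspase list, -0.21 for the inhibitor of apoptosis list and 0.47 for the p53 list, against 0.08 over all genes tested.

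In crypts 7 of the 10 members reached a mean of 1 TPM and were tested, in a fit of all 9 groups. Bcl2, Bik and Bmf did not, with 0.729, 0.473 and 0.389 TPM on average, and were left out of that fit. In Normal crypts the mean levels were Bak1 100 ± 14.4 TPM (SD, n = 2), Bad 93.6 ± 0.321, Mcl1 46.5 ± 2.12, Bcl2l1 13.3 ± 0.764, Bid 7.86 ± 2.49, Bok 6.85 ± 4.79 and Bcl2l11 1.28 ± 0.444. Scaling matters here. The median change of all genes tested against Normal was -0.36, -0.61, -1.03 and 0.27 on the log2 scale at days 1, 2, 3 and 5, and mitochondrial genes took 12.7% to 18.1% of TPM in Normal and 37.9% to 48.4% at day 3. Each change below is therefore also set against that median, and the comparisons by day share the Normal libraries. B and plasma cell markers summed to 102 to 161 TPM in Normal and at most 15.6 TPM in every irradiated group, and leukocyte markers to 60.4 to 107 TPM and at most 48.1 TPM. T cell markers summed to 27.2 to 62.3 TPM in Normal and to 0.767 to 1.77 TPM at IR day 5, where all 5 fell, and at days 1 and 3 only Cd3e was called lower (-1.32 and -1.39). The erythroid marker Hbb-bs fell at each day (-2.55, -3.95, -4.07 and -3.21), from an erythroid sum of 7.64 to 70.3 TPM in Normal. The myeloid marker S100a8 rose at days 2 and 3 (2.47 and 3.71), Itgam fell at both (-1.15 and -1.31), Lyz2 fell at days 2 and 5 (-1.41 and -1.72), and Vim fell at days 3 and 5 (-1.24 and -1.71). Stem cell markers summed to 231 to 432 TPM in Normal and to 14.9 to 18.04 TPM at IR day 3. Of the epithelial markers, Epcam stood at 753 to 771 TPM in Normal and at 239 to 300 TPM at IR day 3. Vil1 went from 303 to 327 TPM to 79.1 to 91.8 TPM, and Cdx2 from 96.5 to 110 TPM to 14.9 to 18.2 TPM. Krt8 overlapped (2166 to 3018 and 1646 to 2527 TPM). The tuft marker Trpm5 was called lower at day 3 (-0.74, limma adjusted p = 0.0292, and 0.30 relative to the median). The part of these shifts in the changes below was not tested.

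Irradiation was followed by a rise of Bok that peaked at day 3. Bok stood at 3.46 and 10.2 TPM in Normal, at 15.8 and 15.1 TPM at day 1, at 24.6 and 43.3 TPM at day 2, at 45.4 and 67.1 TPM at day 3 and at 18.9 and 16.8 TPM at day 5. Every irradiated library lay above both Normal libraries. The log2 fold change against Normal was 1.22 ± 0.35 at day 1 (SE; adjusted p = 0.0380), 2.25 ± 0.35 at day 2 (adjusted p = 2.26e-04), 2.99 ± 0.35 at day 3 (adjusted p = 6.91e-06) and 1.41 ± 0.35 at day 5 (adjusted p = 0.00905). Relative to the median of all genes it was 1.57, 2.86, 4.02 and 1.14. Without the Normal library numbered 1, the lower of the pair, the change was 0.55 at day 1 (adjusted p = 0.239) and 0.75 at day 5 (adjusted p = 0.153), while it stayed at 1.58 (adjusted p = 0.00213) and 2.32 (adjusted p = 6.15e-05) at days 2 and 3. Without either library of IR day 1 the call at day 1 was lost (adjusted p = 0.0647 and 0.161), and without the IR day 5 library numbered 1 that at day 5 (adjusted p = 0.0602).

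At day 1 Bok was the only member called, 1 of 7 against 12.8% of all genes. At day 2 Bok, Bcl2l1 and Bid were called, 3 of 7 against 52.9% of all genes. Bcl2l1, the BCL-XL gene, stood at 13.9 and 12.8 TPM in Normal, at 13.1 and 13.9 TPM at day 1 and at 33.5 and 28.7 TPM at day 2. It stood at 14.2 and 16.0 TPM at day 3 and at 19.4 and 15.9 TPM at day 5. The day 2 libraries thus lay more than 2-fold above both Normal libraries (1.16 ± 0.18, adjusted p = 2.05e-04, and 1.78 relative to the median), and the call held in every alternative setting. Within libraries, log2(Bcl2l1 + 1) minus log2(Bak1 + 1) was -3.02 and -2.62 in Normal, between -1.78 and -1.68 at IR day 2 and between -3.39 and -3.32 at IR day 5, so these 3 groups did not overlap.

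Bid fell to 3.08 and 3.37 TPM at day 2 from 6.10 and 9.62 TPM in Normal (-1.04 ± 0.30, adjusted p = 0.00955). Relative to the median the change was -0.43, and the call was lost without the Normal library numbered 2 (-0.75, adjusted p = 0.110). At day 3, 5 of 7 members were called, against 74.4% of all genes: Bok rose, and Bad (-1.35), Bid (-0.99), Bak1 (-0.63) and Mcl1 (-0.60) fell. Relative to the median of -1.03 these became -0.31 for Bad, 0.05 for Bid, 0.40 for Bak1 and 0.43 for Mcl1. Under quantile normalization Mcl1, Bak1 and Bid turned upward, and under scaling to the 75th percentile Mcl1 and Bak1 did, so their direction at day 3 depends on the scaling. Without the IR day 3 library numbered 1 or the Normal library numbered 2, Bak1 and Bid missed the threshold, with adjusted p between 0.0674 and 0.0955.

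**Figure D4:**
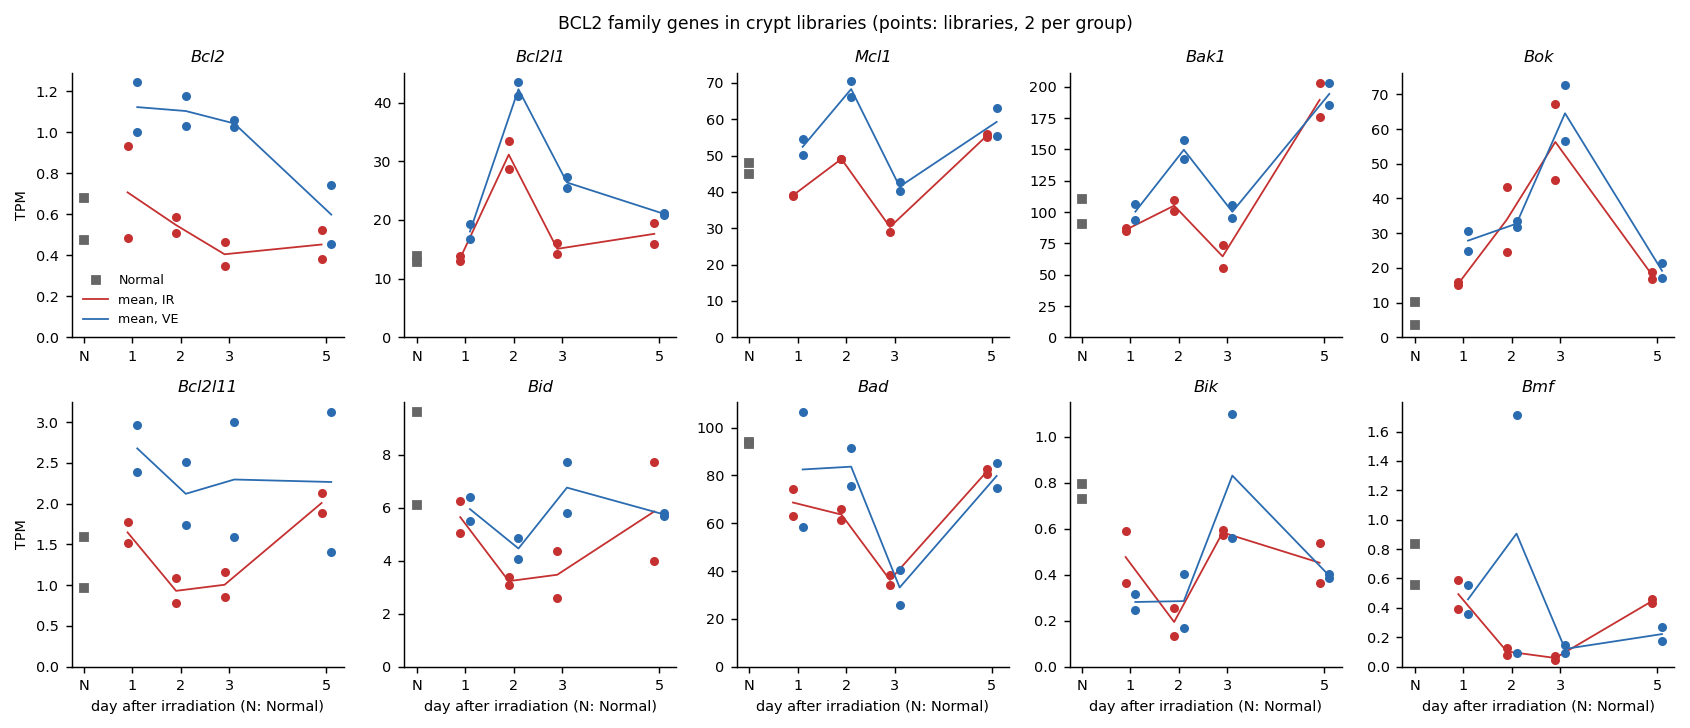
TPM of each member (vertical axis, linear from 0) in crypt libraries by day after irradiation, with Normal (N, squares) at the left; red points are IR and blue points VE, 2 libraries each, and lines join group means. Bok peaks at day 3, Bcl2l1 at day 2 and Bak1 at day 5 in both IR and VE, and Bcl2 lies higher in VE than in IR at days 1 to 3.

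At day 5, 2 of 7 members were called against Normal, Bok and Bak1, against 27.2% of all genes. Bak1 stood at 90.1 and 110 TPM in Normal and at 203 and 176 TPM at day 5 (0.91 ± 0.18, adjusted p = 0.00222, and 0.64 relative to the median), and its call held in every alternative setting except the fold minimum of 2. From day 1 to day 5 Bak1 rose from 84.5 and 86.9 TPM (1.13 ± 0.18, adjusted p = 6.89e-04) and Mcl1 from 39.1 and 39.0 to 55.1 and 55.8 TPM (0.50 ± 0.16, adjusted p = 0.0183), 2 of 7 members against 51.2% of all genes. The Mcl1 change was -0.13 relative to the median and turned negative under quantile and 75th percentile scaling. It was also lost without either IR day 5 library or the IR day 1 library numbered 2, with adjusted p between 0.0700 and 0.0828. Exons of Bak1, Bid and Bad overlap genes on the opposite strand over 25.5%, 17.7% and 20.5% of their length (Ggnbp1, Bcl2l13 and Gpr137), and whether the counting used strand is not given in the sources used here. Ggnbp1 averaged 1.08 TPM in crypts, Bcl2l13 17.0 TPM and Gpr137 16.1 TPM, so Bid, at 5.44 TPM, lies below its partner.

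**Figure D5:**
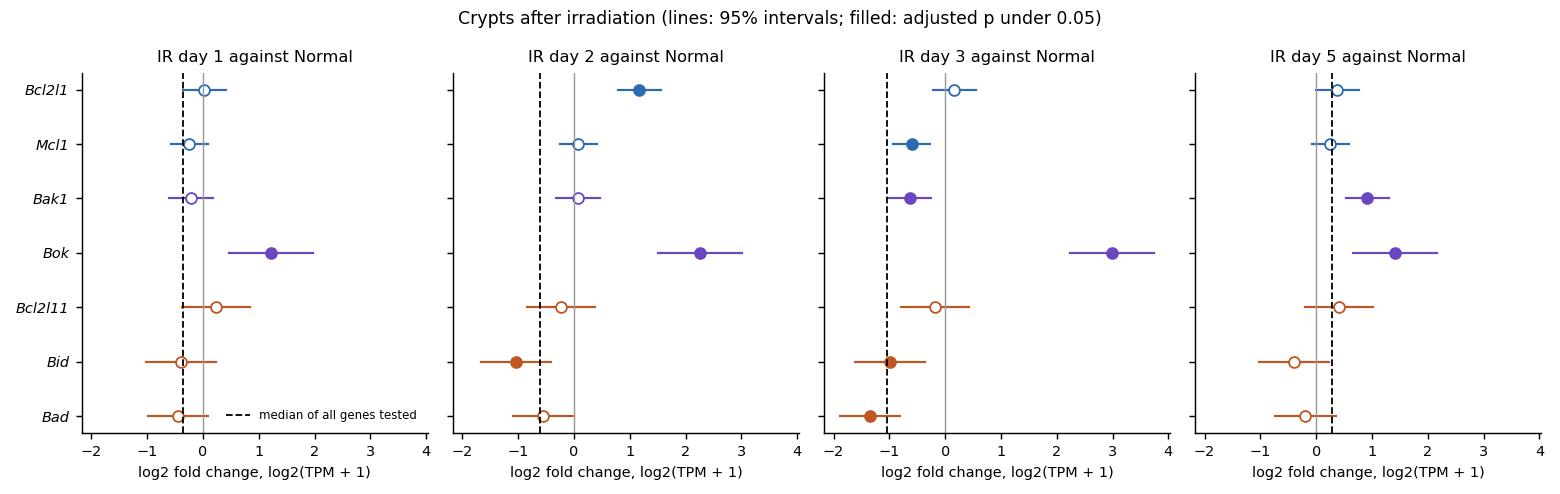
Log2 fold change against Normal on log2(TPM + 1) (horizontal axis) for the 7 members tested at each day after irradiation; lines are 95% intervals, filled points passed an adjusted p of 0.05 and the dashed line is the median of all genes tested. Bok lies right of both the 0 line and the dashed line at every day, Bcl2l1 at day 2 does too, and Mcl1, Bak1 and Bid at day 3 lie between the lines or on the dashed line.

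The VE groups ask what VPA and EPZ6438 do in irradiated mice. At day 1 no member was called, against 0.00926% of all genes (limma), and at day 5 none, against 0.0185%. At day 2 none passed, against 14.6% of all genes, although Bcl2l1, Mcl1, Bak1 and Bcl2l11 had unadjusted p under 0.05 at that day, and Bcl2l1, Mcl1 and Bok at day 1. Of all genes, 36.7% had such a p at day 2 and 13.2% at day 1. At day 5 no member had an unadjusted p under 0.05. At day 3, 4 of 7 members were called, against 52.5% of all genes. Bcl2l1 stood at 14.2 and 16.0 TPM in IR and at 27.2 and 25.5 TPM in VE (0.77 ± 0.18, adjusted p = 0.00303). Bak1 went from 55.1 and 74.1 to 95.1 and 105 TPM (0.64 ± 0.18, adjusted p = 0.00926). Bid went from 2.57 and 4.36 to 5.80 and 7.71 TPM (0.81 ± 0.30, adjusted p = 0.0312), and Mcl1 from 29.0 and 31.7 to 40.1 and 42.7 TPM (0.44 ± 0.16, adjusted p = 0.0289).

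These day 3 groups, of 2 libraries each, did not overlap, and the share of all genes that lay apart is not given here. The median of all genes rose by 0.69, and relative to it the changes were 0.08 for Bcl2l1, -0.06 for Bak1, 0.12 for Bid and -0.26 for Mcl1. Under quantile normalization and under 75th percentile scaling none of the 4 was called, with Mcl1 (-0.08) and Bid (-0.16) turned downward by the first and Mcl1 (-0.30) and Bak1 (-0.11) by the second, so their direction depends on the scaling. The member called under these scalings was Bad, which fell (-0.71, adjusted p = 0.0383, and -0.91, adjusted p = 0.0179). Without the VE day 3 library numbered 2 or the IR day 3 library numbered 1, Mcl1, Bak1 and Bid missed the threshold, with adjusted p between 0.0582 and 0.275, and Mcl1 also did without the VE day 3 library numbered 1 (adjusted p = 0.0528). Averaged over the 4 days, Bcl2l1 (0.46 ± 0.09), Mcl1 (0.35 ± 0.08), Bak1 (0.35 ± 0.09) and Bcl2l11 (0.48 ± 0.14) were higher in VE, 4 of 7 members against 54.9% of all genes, with adjusted p between 0.00134 and 0.0116. Relative to the median of 0.36 their changes lay between -0.01 and 0.12, and no member passed under quantile or 75th percentile scaling. Bok was at 24.9 and 30.8 TPM in VE at day 1, above IR, and overlapped IR from day 2 on (mean change 0.28, 95% interval -0.10 to 0.65). No member was called for a response to VE that differs between days, against 1.75% of all genes (limma treatment by day F test, adjusted p between 0.294 and 0.633, none with an unadjusted p under 0.05).

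Bcl2, the founding restrainer, was low in crypts and lay higher in VE than in IR at days 1 to 3. It stood at 0.475 and 0.680 TPM in Normal and at 0.347 to 0.931 TPM over all IR libraries. In VE it stood at 1.24 and 1.00 TPM at day 1, at 1.03 and 1.18 TPM at day 2, at 1.03 and 1.06 TPM at day 3 and at 0.744 and 0.454 TPM at day 5. The groups lay apart at days 1 to 3 and overlapped at day 5, and the gene was below the 1 TPM minimum. In the alternative fit with no minimum it gave 0.32 ± 0.16 at day 1 (adjusted p = 0.533), 0.44 ± 0.16 at day 2 (adjusted p = 0.131), 0.54 ± 0.16 at day 3 (adjusted p = 0.0250, against 26.6% of all genes called there), 0.13 ± 0.16 at day 5 (adjusted p = 1) and 0.36 ± 0.08 over the days (adjusted p = 0.00756, against 27.6%). The median of all genes in that fit was 0.19 at day 3 and 0.11 over the days. Of Bik and Bmf the same fit called only Bik at IR day 2 against Normal, downward (-0.56, adjusted p = 0.0199, against 26.9%). Bcl2l11 was also higher in VE than in IR without overlap within each of days 1 to 3, with 0.777 to 1.77 TPM over these IR libraries and 1.59 to 2.99 TPM over these VE libraries. For both Bcl2 and Bcl2l11, groups of 2 libraries can lie apart by chance. The share of all genes that lay apart on these days is not given here. The median of all genes tested was also higher in VE, by 0.27, 0.42 and 0.69 at days 1, 2 and 3 against 0.03 at day 5. Of 3 leukocyte markers, Ptprc stood at 4.85 to 6.59 TPM in VE against 2.07 to 4.35 TPM in IR at day 1, at 6.95 to 10.7 against 1.58 to 4.09 TPM at day 2 and at 3.67 to 4.25 against 0.996 to 1.88 TPM at day 3, with no overlap, and at 0.564 to 0.570 against 0.573 to 0.578 TPM at day 5. At day 1 all 3 markers lay higher in VE without overlap (Ptprc 0.72, Coro1a 0.92 and Cd52 0.34, none called). At days 2 and 3 Ptprc was called (1.41 and 1.05), while the changes were 0.06 and -0.27 for Coro1a and -0.42 and -0.18 for Cd52, not called. T cell markers summed to 46.5 to 48.2 TPM in VE and 14.5 to 22.1 TPM in IR at day 1, 44.8 to 53.7 and 35.5 to 41.04 TPM at day 2, and 28.2 to 31.8 and 18.2 to 53.9 TPM at day 3. Averaged over days, 3 of 5 T cell markers, 1 of 3 leukocyte markers, the myeloid marker Itgam (0.36) and the tuft marker Trpm5 (0.55) were called higher in VE, and the plasma cell marker Jchain lower (-0.52, and -1.05 at day 2). Of the epithelial lists, 2 of 3 enteroendocrine, 2 of 5 goblet, 1 of 5 enterocyte, 1 of 4 stem cell, 2 of 5 proliferation and 6 of 8 epithelial markers tested were also called higher. The mitochondrial share was 17.4% to 23.4% in VE and 29.7% to 31.8% in IR at day 1, 26.3% to 29.2% and 32.6% to 39.9% at day 2, and 25.4% to 41.5% and 37.9% to 48.4% at day 3. The part of these in the Bcl2 and Bcl2l11 levels was not tested. Bik stayed between 0.134 and 1.10 TPM in every crypt library. Bmf stood at 0.554 and 0.836 TPM in Normal and at 0.0700 and 0.0464 TPM at IR day 3, and 1 VE day 2 library stood at 1.72 TPM while its partner was at 0.0952 TPM.

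Of the wider apoptosis lists in irradiated crypts, the p53 list moved upward. At day 1, 9 of 11 p53 genes rose and none fell, led by Phlda3 (5.02) and Ccng1 (3.02), where 2.10% of all genes rose and 10.7% fell. At days 2, 3 and 5, 6 rose at each day and 1, 2 and 0 fell, against 6.90%, 3.93% and 19.7% of all genes that rose. The list's median was 1.54, 1.41, 0.89 and 0.85 at the 4 days, against -0.36, -0.61, -1.03 and 0.27 over all genes. Of 12 further family genes tested, Bax rose at day 1 (1.07, adjusted p = 0.00622), day 2 (0.88) and day 3 (1.09), and Bbc3, which encodes the BH3-only protein PUMA, rose at day 1 (0.88, adjusted p = 0.0408) and fell at day 5 (-0.87, adjusted p = 0.0239). At day 3, 12 of 13 apoptosome and caspase genes and 8 of 9 inhibitor of apoptosis genes fell, at a day when 70.5% of all genes fell, with medians of -1.28 and -1.75 against -1.03 over all genes.

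Likeness of pattern was measured as Pearson's r of log2(TPM + 1) over all libraries of a set, as a description. Over the 49 organoid libraries the members closest to each other were Bik and Bmf (0.74), Bid and Bik (0.72) and Bok and Bik (0.72), and the most opposed were Bcl2l1 and Bak1 (-0.71) and Mcl1 and Bik (-0.71). Among 9903 genes the nearest to Bik were Unc119 (0.94) and Dtx3 (0.93), to Bok Igfbp4 (0.94) and Selenoh (0.92), to Bmf Ghr (0.87) and Pde9a (0.84), to Bcl2l1 Ypel3 (0.93) and Pdlim7 (0.89) and to Mcl1 Pcf11 (0.79) and Cpsf7 (0.79). Over the 18 crypt libraries, among 6948 genes, the nearest to Bok were Tnfrsf12a (0.93) and Tubb6 (0.93), to Bcl2l1 Antxr2 (0.93) and Clca4a (0.92) and to Bak1 Gnai3 (0.98) and Paqr4 (0.97). These libraries share media, numbers and scaling. The remaining nearest genes were Spred2 and Fbxl14 for Bcl2, Uap1 and Srp68 for Bak1, Fnbp1 and Trim25 for Bcl2l11, Unc93b1 and Cldn2 for Bid, and Ift20 and Spcs2 for Bad in organoids, with r between 0.78 and 0.89. In crypts they were Aktip and Map2k2 for Mcl1, Dcaf4 and Sdc4 for Bid, and Atp5c1 and Dhrs7b for Bad, with r between 0.90 and 0.96.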

How the data were processed

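Per the submitters' processing notes, the authors used Trimmomatic 0.39, STAR 2.7.3a with the mm10 build, and featureCounts. They deposited 1 table of TPM for 67 libraries. How counts became TPM is not given in the sources used here. Libraries were grouped by their labels, and none was left out. The 10 members, the gene lists and the tests were chosen with earlier results of these data known.

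Values were taken as log2(TPM + 1), on which fold changes of low genes are understated. Testing, with limma 3.58.1 in R 4.3.3 (eBayes with trend and robust), was limited to genes whose mean in a fit reached 1 TPM. The p-values were adjusted by Benjamini-Hochberg over all genes tested. Organoid media were fitted pairwise and the 9 crypt groups together. The fit was tested on simulated data. Named genes were all members, up to 4 genes per list by adjusted p, and the 2 nearest genes by r among genes of at least 5 TPM, without Gm and Rik models. Alternatives were a pseudocount of 0.1, quantile and 75th percentile scaling, removal of mitochondrial genes, no minimum, plain eBayes, other samples in the fit, library numbers 1 to 3 or 4 to 6, a replicate block and leaving out libraries. The change of VE response between media and crossed numbers were added after seeing the data.

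Same-numbered libraries counted as pairs where a comparison had 3 or more pairs and every pair's deviations from the group means correlated over 0.1: 8C -VE with ENR (0.313 to 0.642), 8C -V with 8C (0.106 to 0.598), 8C -V with 8C -VE (0.690 to 0.774) and 8C -E with 8C -VE (0.647 to 0.775). Crypt groups have 2 numbers each and were not counted as pairs. The labels do not say what the numbers stand for.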

Additional observations from a re-analysis of the deposited data

Results flagged for a closer look

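In the 5 organoid media with 6 or 7 libraries, 3 of 50 combinations of member and medium held a library far from the others of its group, and chance flags about 1 in 20. Bcl2l1 stood at 28.5 TPM in the ENR library numbered 1, against 33.1 TPM in the nearest library. Bcl2l1 stood at 58.4 TPM in the 8C library numbered 4, against 39.1 TPM in the nearest library. Bid stood at 25.1 TPM in the 8C -E library numbered 7, against 30.7 TPM in the nearest library.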

How the results depend on the processing

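Counts of members past the threshold are given here, without the share of all genes called in the same setting. A change of count between settings is therefore not set apart from a change over all genes. With a minimum change of 2-fold they were 3 for 8C against ENR, 1 for 8C -VE against ENR, 2 for ENR +VE against ENR, 0 for 8C -V against 8C, 0 for 8C -E against 8C, 0 for 8C -E against 8C -VE, 2 for IR day 3 and 1 for IR day 5 against Normal, 1 for IR day 5 against IR day 1, and 0 for VE against IR at day 3 and over the days. Quantile normalization gave 0 for 8C -V against 8C, 1 for 8C -E against 8C -VE, 1 for VE day 3 against IR day 3, 0 over the days and 1 for IR day 5 against IR day 1, and 75th percentile scaling gave 1, 1, 0 and 1 for 8C -V against 8C and these crypt comparisons. Without mitochondrial genes the counts were 3 for IR day 3 against Normal, 2 for VE day 3 and 1 for IR day 5 against IR day 1, and with no minimum TPM 0 for IR day 1 against Normal. Plain eBayes gave 1 for 8C -E against 8C -VE. With only the compared crypt groups in the fit the counts were 0 for IR day 1 and 1 for IR day 5 against Normal, 2 for VE day 3 and 1 for IR day 5 against IR day 1. With all organoid media in the fit they were 4 for 8C -VE against ENR, 4 for 8C -V against 8C, 2 for 8C -V against 8C -VE, and 1 each for 8C -Pex and 8C -EGF against 8C. Numbers 1 to 3 gave 4 for 8C -VE against ENR, 0 for 8C -V and 0 for 8C -E against 8C, 2 for 8C -V and 4 for 8C -E against 8C -VE, and 1 for 8C -Pex, and numbers 4 to 6 gave 6 for 8C -VE against ENR and 0 for 8C -E against 8C -VE. The replicate block gave 4 for 8C -VE against ENR, 5 for 8C against 8C -VE, 2 for 8C -E against 8C, 2 for 8C -V and 5 for 8C -E against 8C -VE, and 1 for VE day 2 against IR day 2. In 8C against ENR 6 of 7 libraries correlated best with their own number. In crypts, crossed numbers gave 1 member for IR day 1 and 4 for IR day 2 against Normal. Leaving out each library gave 3 to 3 for ENR +VE against ENR, 0 to 1, 3 to 5 and 1 to 2 for IR days 1, 3 and 5 against Normal, 2 to 3 for IR day 2 against Normal, 1 to 4 for VE day 3 against IR day 3, 4 to 5 over the days and 1 to 2 for IR day 5 against IR day 1. Among single genes, quantile normalization turned Mcl1 (0.39), Bak1 (0.29), Bid (0.26) and Bcl2l11 (0.88) upward at IR day 3 against Normal, Mcl1 (-0.077) and Bid (-0.16) downward at VE day 3 and Mcl1 (-0.12) downward from IR day 1 to day 5. The 75th percentile turned Mcl1 (0.54) and Bak1 (0.52) at IR day 3, Mcl1 (-0.30) and Bak1 (-0.11) at VE day 3, Mcl1 (-0.031) and Bak1 (-0.037) over the days and Mcl1 (-0.15) from IR day 1 to day 5. The cause was not tested. TPM keeps no depth, so counting error could not be weighed, and 2 libraries per crypt group limit what can be called.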
